A study of Mus musculus with 27 samples.

Results

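Chemokine receptors are proteins of the cell surface that let leukocytes sense chemokines, small secreted proteins that direct their movement. Ccr1, Ccr2, Ccr3, Ccr7, Ccrl2, Cx3cr1 and Cxcr4 were the 7 receptor genes described here, chosen by symbol from a table of 45070 genes, and all 7 were found in it. The cells were bone marrow-derived macrophages (BMDMs), grown from the marrow of wild type male C57/BL6 mice aged 6 to 8 weeks. All groups, the untreated cells included, were first kept for 1 h with DMSO, the solvent of the drugs tested elsewhere in the study. A group of cells was then left untreated, with no such group for each later time. The other groups were given a stimulus for 0.5, 1, 2 or 4 h. It was 10 ng/ml of lipopolysaccharide (LPS), a component of bacterial walls sensed by TLR4, or 10 ng/ml of the cytokine interleukin-4 (IL-4). These 9 groups had 3 replicates each, 27 samples in all. Whether replicates came from separate animals or cultures is not given in the sources used here, so p-values measure only the spread between these samples, which may be technical.

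Most chemokine receptors have 7 membrane-spanning helices and signal through Gi proteins, whose released subunits activate phosphoinositide 3-kinase and phospholipase C and drive migration. Receptor kinases and arrestins then switch the receptor off, and RGS proteins shorten the signal of the G protein. Ccrl2 is an exception, an atypical receptor that does not signal in this way and holds the attractant chemerin at the cell surface. Macrophages and their monocyte precursors use Ccr2 to leave the marrow and enter inflamed tissue, Cx3cr1 to attach and patrol, and Cxcr4 to stay in the marrow.

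The values are normalised read counts of chromatin-associated RNA, the RNA still bound to chromatin, which is rich in transcripts being made. They report the RNA of a gene on chromatin and not the amount of receptor on the cell. In such bulk samples fewer cells of a type and less RNA per cell cannot be told apart. Values were compared as log2(value + 1) with limma, adjusted over 13901 tested genes, and a gene was called changed at an adjusted p under 0.05.

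The macrophage markers fixed for the check, among them Adgre1, Csf1r, Mertk and Lyz2, summed to 9579 to 17755 normalised read counts in every library. Adgre1 was the largest of them in untreated cells, with a mean of 4245. All 7 reported were tested and called over the LPS course (87.6% of all genes), 3 upwards and 4 downwards. Their median largest change was −1.09 on the log2 scale, against −1.002 over all tested genes. Csf1r, the receptor of the growth factor CSF1, fell by 2.11 at LPS 2 h, and Mertk, Itgam and Lyz2 fell as well, while Fcgr1 rose by 3.79 at 4 h. IL-4 gave calls for 5 over its course (40.3% of all genes), 2 upwards and 3 downwards, with a median of −0.50 against −0.16 over all tested genes. These changes stand beside those of Cxcr4, Cx3cr1, Ccr2 and Ccr1, and their part in them was not tested. Of the markers of other cell types, Ly6g, Ear6, Cd3e, Cd3g, Mcpt4 and Fcer1a were at 0 in every library. Summed normalised read counts were 334 to 2177 for the 6 neutrophil markers, nearly all of them from Csf3r, a receptor that macrophages also make. They were 0 to 14 for 4 T cell markers, 1 to 8 for 5 B cell markers, 0 to 9 for 5 mast cell and basophil markers and 38 to 226 for 4 stromal markers. Replicate 1 stood apart from replicates 2 and 3 in every group. Log2 ratios of 620 abundant genes had an SD of 0.37 to 0.45 when replicate 1 was set against replicate 2, and of 0.14 to 0.29 for replicate 2 against replicate 3. Summed values were 2469768 to 2790981 in the untreated and IL-4 libraries and 3571492 to 4058199 in the LPS libraries. The values had been scaled by the authors, so these sums are not depths and the depth is unknown.

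LPS moved all 7 receptor genes, and they went in opposite directions. Ccrl2, Ccr3 and Ccr7 rose, while Cxcr4, Cx3cr1, Ccr2 and Ccr1 fell. After IL-4 Cxcr4, Cx3cr1, Ccr2 and Ccr1 fell, and none of the 7 rose. The courses share their untreated libraries, so a fall in both is not seen independently. No untreated group matches the times after the stimulus, so against untreated cells stimulus and time in culture cannot be told apart. Over the LPS course all 7 were called by the F test, where 87.6% of all tested genes were called, so the count by itself says little about the receptors. Over the IL-4 course 4 of 7 were called, against 40.3% of all genes. The filter on low values required 10 normalised read counts in 3 samples, and all 7 passed. Ccr3, Ccr7 and Ccrl2 passed it only through 7, 3 and 12 LPS libraries, so their calls under LPS, alone or against IL-4, are given as values and not as support.

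**Figure D1:**
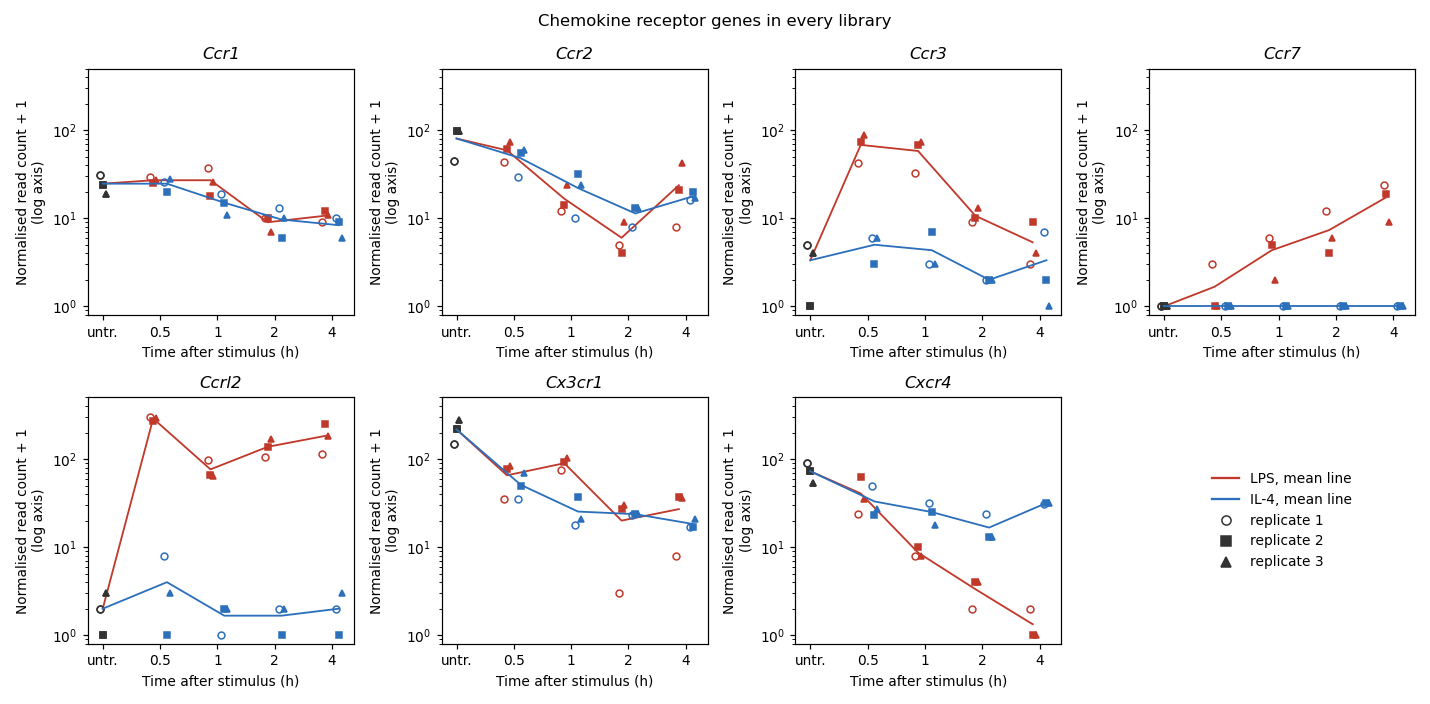
Normalised read counts plus 1 (log axis) of the 7 receptor genes in each of the 27 libraries against time after the stimulus, with untreated cells at the left. Red marks LPS, blue IL-4 and black untreated cells, symbols give the replicate and lines join the group means. Ccrl2, Ccr3 and Ccr7 rise after LPS at different times, and Cxcr4 falls to 1, 0 and 0 at LPS 4 h while it stays at 30 to 31 at IL-4 4 h.

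Per kilobase of gene span, which allows for the length of each gene, Cxcr4 had the highest level in untreated cells at 17.5 ± 4.51 normalised read counts per kb (SD, n = 3). Ccr2 followed at 11.4 ± 4.40 and Cx3cr1 at 11.0 ± 3.37, which lay within each other's spread, and Ccr1 at 3.60 ± 0.918. Ccrl2, Ccr3 and Ccr7 were at 0.372 ± 0.372, 0.240 ± 0.214 and 0 per kb. Per kilobase of transcript the order at the top was different, with Cx3cr1 at 57.5 ± 17.6, Cxcr4 at 39.5 ± 10.2, Ccr2 at 22.1 ± 8.53 and Ccr1 at 8.36 ± 2.13. In either scale untreated macrophages held 4 receptor genes at a measurable level and 3 near 0. After LPS for 0.5 h Ccrl2 stood at 107 ± 6.77 per kb of span, the highest level of any of the 7 genes in any group on that scale.

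Ccrl2 (chr9:111054834-111057518, minus strand, GRCm38) was the largest riser of the 7 genes, and like Ccr3 it had its highest mean at LPS 0.5 h. Its promoter window is shown because it holds matches to the binding form of NF-κB, the factor activated by TLR4. The sequence is from RefSeq (GRCm38.p6, chr9:111057469-111057768, minus strand, 250 bases before to 50 after the start site), and capitals mark the matches to GGNNNTTCC on either strand:
Ccrl2: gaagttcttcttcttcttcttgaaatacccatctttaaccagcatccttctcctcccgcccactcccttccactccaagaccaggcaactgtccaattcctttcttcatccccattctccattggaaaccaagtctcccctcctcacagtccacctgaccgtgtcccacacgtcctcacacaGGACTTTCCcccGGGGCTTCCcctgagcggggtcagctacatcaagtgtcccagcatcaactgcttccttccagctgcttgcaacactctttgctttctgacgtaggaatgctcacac

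The matches in the Ccrl2 window, GGACTTTCC and GGGGCTTCC, began 68 and 56 bases before the start site. Of 32851 promoter windows of the same length, 18.5% held this motif, and 2 of the 8 windows found for the receptor genes did, those of Ccrl2 and Ccr3. Windows were found for 6 of the 7 genes, none for Ccr7, and Ccrl2 had 3 of them, of which the window printed starts where the table's gene does. The letters searched were chosen after the receptor windows had been read, and were widened so as to take in the Ccr3 match. The narrower form considered first takes in GGACTTTCC but neither GGGGCTTCC nor the Ccr3 match, so the count of 2 carries no weight against the share in all windows. A match is a description of the sequence and does not show that a factor was bound.

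In untreated cells Ccrl2 stood at 1, 0 and 2 normalised read counts in replicates 1, 2 and 3. LPS brought it to 302, 267 and 293 at 0.5 h. It then stood at 97, 65 and 64 by 1 h, at 105, 135 and 170 by 2 h, and at 114, 249 and 183 by 4 h. Every LPS library was far above every untreated library, and the peak came at the first time point, followed by lower values. The log2 difference from untreated was 7.31 at 0.5 h (SE 0.35, limma adjusted p 2.026e-10), 5.37 at 1 h, 6.22 at 2 h and 6.58 at 4 h. With untreated values this low the size depends on the pseudocount, and with 8 in place of 1 it was 5.04 at 0.5 h. The step from 0.5 to 1 h was −1.94 on the log2 scale (SE 0.35, adjusted p 0.0002987) with no overlap between replicates. The step from 1 to 2 h was 0.85 (adjusted p 0.06295) with no overlap, and it was 1.22 without replicate 1 (adjusted p 0.01229). After IL-4 the gene stayed between 0 and 7 in all 12 libraries and was not called (F test adjusted p 0.7762).

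Ccr3 (chr9:124021971-124031689, plus strand), the receptor of the eotaxins and best known from eosinophils, rose early and fell back within the course. Its RefSeq window (GRCm38.p6, chr9:124021721-124022020, plus strand) is shown as the other receptor promoter with the NF-κB form, in capitals:
Ccr3: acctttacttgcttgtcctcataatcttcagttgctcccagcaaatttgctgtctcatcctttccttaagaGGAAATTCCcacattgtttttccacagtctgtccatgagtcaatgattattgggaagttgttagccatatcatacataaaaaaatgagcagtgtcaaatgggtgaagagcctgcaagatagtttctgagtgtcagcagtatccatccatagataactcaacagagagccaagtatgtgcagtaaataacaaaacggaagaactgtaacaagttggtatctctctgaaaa

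The match, GGAAATTCC, began 179 bases before the start site. A match to the AP-1 form TGANTCA, held by 7.81% of all windows, began 144 bases before the same start site without overlap with the first, and no other receptor window had that form. AP-1 factors such as Fos and Jun are also activated by LPS.

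Untreated cells held 4, 0 and 3 normalised read counts of Ccr3. With LPS there were 41, 73 and 87 at 0.5 h, then 32, 67 and 72 after 1 h, 8, 9 and 12 after 2 h, but 2, 8 and 3 by 4 h. The libraries of the first 3 LPS time points lay above all untreated ones, and those of 4 h overlapped them. On the log2 scale the difference was 4.58 at 0.5 h (SE 0.56, adjusted p 6.733e-06), 4.33 at 1 h, 1.96 at 2 h (adjusted p 0.006475) and 0.81 at 4 h (adjusted p 0.2213). With a pseudocount of 8 the value at 0.5 h was 2.83. The step from 1 to 2 h was −2.38 (SE 0.56, adjusted p 0.00272), with no overlap. The 2 h difference was 1.27 without replicate 2 (adjusted p 0.06109), the fall from 1 to 2 h had an adjusted p of 0.05296 without replicate 3, and the 4 h difference was 1.59 without replicate 1 (adjusted p 0.01934). After IL-4 Ccr3 lay between 0 and 6 in every library, and the F test adjusted p was 0.5011. Eosinophil markers were near 0 throughout: the 6 of them, Siglecf, Epx, Prg2, Prg3, Il5ra and Ear6, summed to 2 to 3 normalised read counts in untreated, 2 to 7 in LPS and 1 to 6 in IL-4 libraries, and Epx never exceeded 1.

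Ccr7 (chr11:99144199-99155077, minus strand), which guides dendritic cells and lymphocytes to lymph nodes along Ccl19 and Ccl21, was the late riser. It was listed at 0 in all 3 untreated and all 12 IL-4 libraries. After LPS it stood at 2, 0 and 0 at 0.5 h, then 5, 4 and 1 after 1 h, 11, 3 and 5 after 2 h and 23, 18 and 8 after 4 h. Values at neighbouring LPS time points overlapped, but those of 1, 2 and 4 h were all above 0. Since untreated cells were at 0, no fold is given. The difference on the log2(value + 1) scale was 0.53 at 0.5 h (adjusted p 0.4535), 1.97 at 1 h (adjusted p 0.006703), 2.72 at 2 h (adjusted p 0.0005694) and 4.00 at 4 h (SE 0.56, adjusted p 1.526e-05). The call at 1 h was lost without replicate 2 (1.79, adjusted p 0.07822) and with a pseudocount of 8 (adjusted p 0.08452). The 6 markers of dendritic cells were Flt3, Zbtb46, Itgax, Dpp4, Clec9a and Cd209a, and 5 were tested. Limma called 4 over the LPS course, all upwards (87.6% of all genes), and 4 over the IL-4 course, 3 upwards and 1 downwards (40.3%). The tested markers had untreated means of 0.67 to 6.33 and needed stimulated libraries to pass the filter, so these counts are not support. All 6 markers summed to 13 to 16 normalised read counts in untreated, 25 to 122 in LPS and 17 to 81 in IL-4 libraries. The part of these markers in the Ccr7 values was not tested.

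Cxcr4 (chr1:128588199-128592299, minus strand), the receptor of Cxcl12 that holds myeloid cells in the marrow, had the largest fall after LPS on the log2(value + 1) scale, whereas with a pseudocount of 8 it was level with that of Cx3cr1 (−3.23 against −3.22). Its window (RefSeq, GRCm38.p6, chr1:128592250-128592549, minus strand) is shown for contrast with those of the risers, and it has no match to any of the 6 forms searched:
Cxcr4: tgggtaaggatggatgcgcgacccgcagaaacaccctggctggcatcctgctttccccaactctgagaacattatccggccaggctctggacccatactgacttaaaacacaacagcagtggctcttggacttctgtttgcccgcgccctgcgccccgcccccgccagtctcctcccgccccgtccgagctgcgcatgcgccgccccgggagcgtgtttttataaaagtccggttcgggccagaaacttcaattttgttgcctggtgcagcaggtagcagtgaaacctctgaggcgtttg

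The forms were GGNNNTTCC for NF-κB, TGANTCA for AP-1, TTCNNNGAA for STAT factors and the same with 1 more base between the outer triplets for STAT6, GAAANNGAA for IRF factors, and GAGGAAGT for PU.1. They were found in 18.5%, 7.81%, 8.3%, 6.95%, 8.56% and 3.2% of all windows. The windows of Cx3cr1 and Ccr1 also had none, and that of Ccr2 held an IRF form on its minus strand, beginning 86 bases before the start site. That a window lacks these letters says nothing of the factors.

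Cxcr4 stood at 90, 72 and 53 normalised read counts in untreated cells. After LPS it was at 23, 62 and 34 at 0.5 h, then 7, 9 and 7 after 1 h, 1, 3 and 3 after 2 h and 1, 0 and 0 after 4 h. From 1 h on every LPS library was below every untreated one, and only the 0.5 h values overlapped them. The log2 fold change was −0.92 at 0.5 h (adjusted p 0.07365), −3.04 at 1 h (adjusted p 1.242e-05), −4.48 at 2 h and −5.82 at 4 h (SE 0.41, adjusted p 6.667e-09). At 0.5 h the fall was called at equal library totals (−1.42, adjusted p 0.005353) and with a pseudocount of 8 (−0.80, adjusted p 0.01263). The values at 4 h are at the lower end of the scale, so the size of that last fold change depends on the pseudocount, and with 8 it was −3.23. Cxcr4 fell at each step, with log2 changes of −2.12 from 0.5 to 1 h (adjusted p 0.0005725), −1.44 from 1 to 2 h (adjusted p 0.01019) and −1.33 from 2 to 4 h (adjusted p 0.02948). The step from 1 to 2 h had adjusted p values of 0.05943 without replicate 2 and 0.06158 without replicate 3, and the last step, whose values overlapped, was lost without either (adjusted p 0.2994 and 0.3765).

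After IL-4 Cxcr4 fell too and did not reach 0. It stood at 48, 22 and 26 at 0.5 h, then 31, 24 and 17 after 1 h, 23, 12 and 12 after 2 h and 30, 31 and 31 after 4 h, all below the lowest untreated value of 53. The log2 fold change was −1.19 at 0.5 h (adjusted p 0.02179), −1.55 at 1 h (adjusted p 0.003297), −2.16 at 2 h (SE 0.32, adjusted p 0.0001972) and −1.17 at 4 h (adjusted p 0.01645). Only the call at 2 h held when replicate 2 or 3 was left out: without replicate 2 the adjusted p was 0.348, 0.08386 and 0.1573 at 0.5, 1 and 4 h, and without replicate 3 it was 0.1352, 0.0612 and 0.07691.

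Cx3cr1 (chr9:120048683-120068296, minus strand), the receptor of the membrane-bound chemokine fractalkine (Cx3cl1), fell after both stimuli. Untreated cells held 147, 221 and 279 normalised read counts. After IL-4 there were 34, 48 and 68 at 0.5 h, then 17, 36 and 20 after 1 h, 22, 23 and 23 after 2 h and 16, 16 and 20 after 4 h. No IL-4 library reached the lowest untreated one, and the fall was already there at the first time point. The log2 fold change was −2.09 at 0.5 h (adjusted p 0.0002303), −3.12 at 1 h, −3.15 at 2 h and −3.52 at 4 h (SE 0.30, adjusted p 1.519e-06). These were the only IL-4 calls of the receptor genes that held at all 4 time points without any 1 replicate.

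After LPS Cx3cr1 was lower than in untreated cells at every time, and the calls came at 2 and 4 h. It stood at 34, 76 and 83 at 0.5 h, then 74, 91 and 101 after 1 h, 2, 26 and 29 after 2 h and 7, 36 and 35 after 4 h, with replicate 1 the lowest at each time. No LPS library overlapped the untreated ones. The log2 fold change was −1.78 at 0.5 h (SE 0.73, adjusted p 0.05231), −1.24 at 1 h (adjusted p 0.153), −3.96 at 2 h (adjusted p 0.0002121) and −3.25 at 4 h (adjusted p 0.001201). Without replicate 1 the values at 0.5 and 1 h were −1.63 (adjusted p 2.268e-06) and −1.36 (adjusted p 7.88e-06). They were also called at equal library totals (−2.29 and −1.81) and with a pseudocount of 8 (−1.66 and −1.17). The step from 1 to 2 h was −2.73 (SE 0.73, adjusted p 0.006722), with no overlap.

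Ccr2 (chr9:124102183-124109140, plus strand), the Ccl2 receptor that brings monocytes to inflamed tissue, fell within 1 h of either stimulus. It stood at 44, 97 and 97 normalised read counts in untreated cells. After LPS it was at 42, 60 and 72 at 0.5 h, then 11, 13 and 23 after 1 h, 4, 3 and 8 after 2 h and 7, 20 and 41 after 4 h. Only the 0.5 h libraries overlapped the untreated ones, and at 4 h the replicates were spread widely. On the log2 scale the change was −0.39 at 0.5 h (adjusted p 0.5473), −2.25 at 1 h (SE 0.52, adjusted p 0.001436), −3.74 at 2 h (adjusted p 1.214e-05) and −1.98 at 4 h (adjusted p 0.003581). Without replicate 2 those at 1 and 4 h were −1.97 (adjusted p 0.05513) and −1.86 (adjusted p 0.06707). The step from 2 to 4 h was a rise of 1.76 (adjusted p 0.02189), with overlapping values, and it had an adjusted p of 0.2988 without replicate 2 and 0.1172 without replicate 3.

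After IL-4 Ccr2 stood at 28, 54 and 59 at 0.5 h, then 9, 31 and 23 after 1 h, 7, 12 and 12 after 2 h and 15, 19 and 16 after 4 h. All libraries from 1 h on lay below the lowest untreated one of 44. The log2 fold change was −0.72 at 0.5 h (adjusted p 0.3131), −1.94 at 1 h (adjusted p 0.004998), −2.77 at 2 h (SE 0.43, adjusted p 0.0002674) and −2.10 at 4 h (adjusted p 0.002512). The fall at 2 h was called without each replicate in turn. The call at 1 h was lost without replicate 2 (adjusted p 0.06393) or 3 (adjusted p 0.115), as was that at 4 h (adjusted p 0.06277 and 0.1005), and at 0.5 h the change became a call without replicate 1 (−0.77, adjusted p 0.01923).

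Ccr1 (chr9:123962126-123968692, minus strand), a receptor of Ccl3 and Ccl5, was called lower from 2 h on after either stimulus. It stood at 30, 23 and 18 normalised read counts in untreated cells, 28, 24 and 26 at LPS 0.5 h, then 36, 17 and 25 after 1 h, 9, 9 and 6 after 2 h and 8, 11 and 10 after 4 h. The first 2 LPS time points overlapped the untreated cells and the last 2 lay below them. Log2 fold changes were 0.16 at 0.5 h (adjusted p 0.677), 0.10 at 1 h (adjusted p 0.7894), −1.45 at 2 h (SE 0.30, adjusted p 0.0005072) and −1.19 at 4 h (adjusted p 0.002474). At equal library totals the early values were −0.33 and −0.46, below 0, with adjusted p values of 0.3398 and 0.1709.

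After IL-4 Ccr1 was at 25, 19 and 27 at 0.5 h, then 18, 14 and 10 after 1 h, 12, 5 and 9 after 2 h and 9, 8 and 5 after 4 h. The change from untreated was 0.01 at 0.5 h (adjusted p 0.9895) and −0.72 at 1 h (adjusted p 0.1404). The step between these times was −0.74 (adjusted p 0.2048), with no overlap. The 2 h and 4 h libraries lay below all untreated ones, with changes of −1.39 (adjusted p 0.005122) and −1.57 (SE 0.32, adjusted p 0.002536) on the log2 scale. Without replicate 2 the 2 h change was −1.09 (adjusted p 0.1263). Over the IL-4 course as a whole Ccr1, Ccr2 and Cxcr4 had F test adjusted p values of 0.002234, 0.0008803 and 0.001507. These became 0.06249, 0.05205 and 0.1008 without replicate 2, and 0.06571, 0.08404 and 0.05331 without replicate 3, which left Cx3cr1 as the only receptor gene called over that course.

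Counted by time point, LPS changed 2 of the 7 genes at 0.5 h, where 53.9% of all tested genes were called, 5 at 1 h (63.8%), 7 at 2 h (65.9%) and 6 at 4 h (63.5%). IL-4 changed 2 after 0.5 h (16.3%), 3 after 1 h (21%), 4 after 2 h (27.6%) and 4 after 4 h (25.9%), all of them downwards. Without replicate 2 the LPS count at 1 h was 3, and without replicate 2 or 3 the IL-4 counts were 1, 1 and 2 at 0.5, 1 and 4 h. The median gene itself moved by −0.24 to −0.30 on the log2 scale after LPS and by −0.02 to 0.02 after IL-4. Relative to it, the LPS change of Ccr1 was −1.16 at 2 h and −0.93 at 4 h, that of Cxcr4 −5.56 at 4 h and that of Ccrl2 7.55 at 0.5 h.

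**Figure D2:**
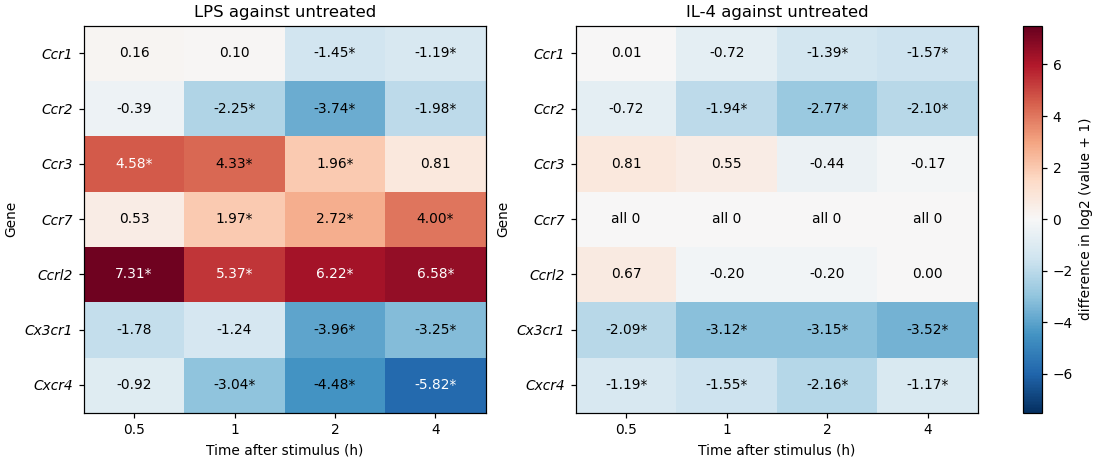
Difference from untreated cells in log2(value + 1) for each receptor gene (rows) at each time after LPS (left) and IL-4 (right), in red where higher and blue where lower, with a star where the limma adjusted p was under 0.05. After IL-4 only Ccr1, Ccr2, Cx3cr1 and Cxcr4 carry stars and all are falls, and Ccr7 was at 0 in all IL-4 and untreated libraries.

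Between neighbouring LPS time points 4 of 7 genes changed from 0.5 to 1 h (49.7% of all genes), 5 from 1 to 2 h (43.3%) and 2 from 2 to 4 h (22.9%). From 1 to 2 h all 5, Ccr1, Ccr2, Ccr3, Cx3cr1 and Cxcr4, fell. Ccr1 fell by 1.54 in that step (SE 0.30, adjusted p 0.0005192), after no called change before it. Without replicate 2 the 3 counts were 2, 3 and 0, and without replicate 3 they were 3, 2 and 0. After IL-4 limma called none of the 7 genes in any step, against 7.82%, 9.4% and 5.48% of all genes, and 3, 0 and 1 had an unadjusted p under 0.05. Without replicate 1 the counts were 2, 1 and 1.

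The stimuli were next compared directly at each time in a fit of all 27 samples. At 0.5 h 2 of the 7 genes differed (53.8% of all genes), at 1 h 6 (64.5%), at 2 h 4 (68.6%) and at 4 h 3 (68%). Ccrl2 was higher after LPS at every time, by 5.56 to 6.64 on the log2 scale. Ccr3 was higher by 3.77 (SE 0.62, adjusted p 1.527e-05) at 0.5 h and 2.40 at 2 h, while the 4 h difference was 0.98 (adjusted p 0.1612), which was 2.09 and called without replicate 1 (adjusted p 0.00283). Ccr7 was higher from 1 h on.

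Cxcr4 was the gene on which the stimuli came apart downwards. LPS and IL-4 did not differ detectably at 0.5 h (0.27, SE 0.38, adjusted p 0.5934). LPS was then lower, with differences of −1.50 at 1 h (adjusted p 0.001544), −2.33 at 2 h and −4.65 at 4 h (SE 0.38, adjusted p 1.527e-10), with no overlap at those 3 times. Without replicate 1 the value at 0.5 h was 0.91, higher after LPS (adjusted p 0.02069).

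Cx3cr1 was higher after LPS than after IL-4 at 1 h, by 1.88 (SE 0.62, adjusted p 0.01068), with no overlap. The adjusted p was 0.05132 without replicate 2 and 0.1055 without replicate 3. At 4 h the difference was 0.27 (adjusted p 0.7158), but 0.95 without replicate 1 (adjusted p 0.001103). Ccr1 was higher after LPS at 1 h by 0.82 (adjusted p 0.02414) with overlapping values, a call lost without replicate 1 (adjusted p 0.06498), without replicate 3 (adjusted p 0.2384) and at equal totals. For Ccr2 no difference between the stimuli was called, and the largest was −0.97 at 2 h (SE 0.50, adjusted p 0.08766). This was −1.12 without replicate 1 (adjusted p 0.007674) and −1.50 at equal totals (adjusted p 0.0084).

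**Figure D3:**
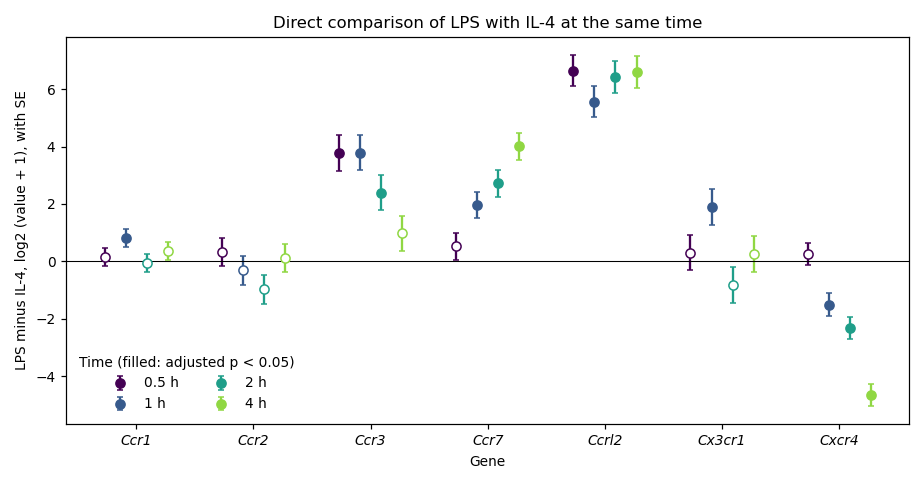
LPS minus IL-4 at the same time in log2(value + 1) for each receptor gene, with bars of 1 SE and 3 replicates per group. Filled points passed an adjusted p of 0.05. Ccrl2 lies near 6 at all times, Ccr3 declines and Ccr7 climbs with time, and Cxcr4 goes from near 0 to −4.65 at 4 h.

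In the order of the 9 group means, most neighbours could not be separated. The replicates of neighbouring groups overlapped in 8 of 8 places for Ccr2 and Ccr7, 7 of 8 for Ccr1, Ccr3 and Cx3cr1, 6 of 8 for Cxcr4 and 5 of 8 for Ccrl2. For Cx3cr1 the only gap lay between untreated cells and LPS 1 h. For Ccr3 it lay between LPS 1 h and LPS 2 h, and for Ccr1 between IL-4 0.5 h and IL-4 1 h. Cxcr4 had gaps below IL-4 2 h and below LPS 1 h.

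Of the 7 genes, 5 lie on chromosome 9, and neighbouring genes could share reads with them, since the use of strand in counting was not stated. Gm33858, a non-coding gene on the other strand (chr9:120063262-120071051), overlaps Cx3cr1 at the end where Cx3cr1 starts. It stood at 67, 92 and 105 normalised read counts in untreated cells. After LPS it was at 8, 17 and 16, then 31, 35 and 40, then 1, 1 and 2, and at 4 h 4, 8 and 17, and after IL-4 it stayed between 5 and 14. Its log2 fold changes after LPS were −2.64, −1.28, −5.26 and −3.23 at the 4 times, and reads of the 2 genes cannot be told apart. The change at 1 h had an adjusted p of 0.01316, and of 0.1209 without replicate 2 and 0.05155 without replicate 3. Among the non-overlapping neighbours Gm32249, 13235 bases from Ccr7 on the other strand, rose at every LPS time and by 1.47 at 4 h (adjusted p 2.846e-07), from a mean of 81.7 to 230.7, and no IL-4 change was called. Gm33800, 36533 bases from Cx3cr1, also rose at every LPS time, by 2.42 at 0.5 h (adjusted p 3.747e-05), where Cx3cr1 did not rise. With an untreated mean of 1.67 it passed the filter only through LPS libraries. Its rise is therefore given as a value and not as support. For Ltf near Ccrl2 and Slc25a38 near Cx3cr1 no change from untreated cells was called. Slc25a38 was lower after LPS than after IL-4 at 2 h (−1.23, adjusted p 0.009605) and at 4 h (−0.96, adjusted p 0.03894).

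**Figure D4:**
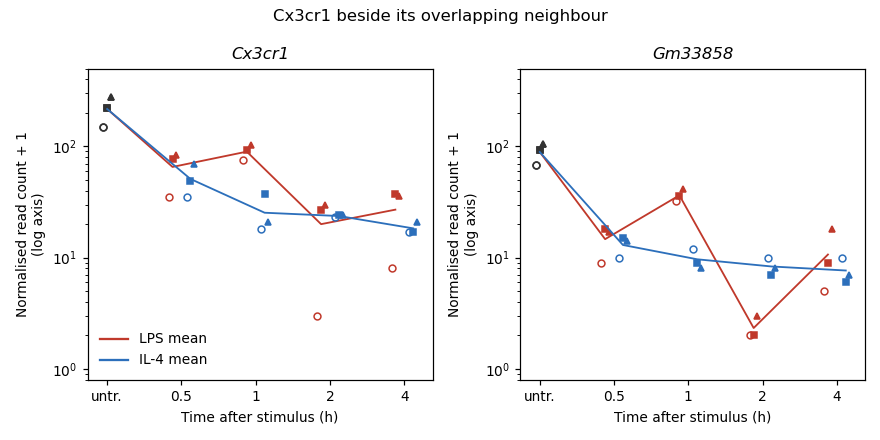
Normalised read counts plus 1 (log axis) of Cx3cr1 and its overlapping neighbour Gm33858 in each library against time, with untreated cells in black, LPS in red and IL-4 in blue (circle, square and triangle for replicates 1, 2 and 3). Both genes lie below untreated cells at every time, and Gm33858 is lowest at LPS 2 h with 1, 1 and 2. For Cx3cr1 the step from LPS 0.5 to 1 h was not called (0.55, adjusted p 0.5675).

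Beyond the 7 genes, 15 other chemokine receptors are reported and only 4 passed the filter. The other 11, among them Ccr4, Ccr6, Ccr8, Cxcr1, Cxcr3, Cxcr5 and Xcr1, never exceeded 6 normalised read counts. All 4 tested were called over the LPS course (87.6% of all genes), 2 upwards and 2 downwards. Ccr9, a homing receptor of the gut, went from 10.7 ± 3.06 to 26 ± 5.29 at LPS 4 h (log2 fold change 1.23, adjusted p 0.01328), and Cxcr2, the neutrophil receptor of Cxcl1, from 9.67 ± 1.53 to 21 ± 4 (1.04, adjusted p 0.004843). At equal totals these were 0.65 and 0.47 and not called. The Ccr9 rise was not called without replicate 2 (adjusted p 0.1237), nor that of Cxcr2 without replicate 3 (adjusted p 0.06187). Ackr4, a scavenger of Ccl19 and Ccl21, fell from 27 ± 4.36 to 5.67 ± 3.21 at LPS 4 h (−2.21, adjusted p 0.0001038), and Cxcr6 fell from 23 ± 2.65 to 13.7 ± 3.06 at LPS 0.5 h (−0.73, adjusted p 0.03622), a call lost without any 1 replicate (adjusted p 0.0523, 0.2203 and 0.1185). Over the IL-4 course (40.3% of all genes) limma called 0 of the 4, and 1 had an unadjusted p under 0.05. The LPS count of 4 became 1 without replicate 2 and 2 without replicate 3, and the IL-4 count of 0 became 1 without replicate 1.

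The ligands of the 7 receptors mostly rose after LPS. Of 14 ligands 9 were tested, and all 9 were called over the LPS course (87.6% of all genes), 8 upwards and 1 downwards. The median of their largest changes was 5.08, against −1.002 over all tested genes. Ccl5, Ccl7, Ccl2 and Ccl24 had untreated means of 1, 1.33, 3 and 0.67 and passed the filter only through stimulated libraries. The counts and medians of the ligands in either course are therefore a description and not support. Ccl2 and Ccl7, which act on Ccr2, rose by 6.22 and 6.29 at LPS 1 h, when Ccr2 stood at −2.25 on the same scale. Ccl5, which acts on Ccr1 and Ccr3, rose by 11.32 at 2 h. Cx3cl1, the ligand of Cx3cr1, rose by 4.91 at LPS 2 h (SE 0.37, adjusted p 1.472e-08) and was called at no IL-4 time point. This rise too is given as a value and not as support. Cx3cl1 is named for its receptor and lies outside the rule for named genes. Ccl6 fell by 1.73 at LPS 2 h. Over the IL-4 course 6 of 9 were called (40.3% of all genes), 4 upwards and 2 downwards, with a median of 0.51 against −0.16 over all tested genes. Ccl7 rose by 4.46 and Ccl2 by 2.96 at IL-4 0.5 h, Ccl24, an eotaxin that acts on Ccr3, rose by 3.27 at 2 h, and Ccl3 (−1.90) and Ccl6 (−1.75) fell at 2 h. Before its fall Ccl3 was higher at 0.5 h, by 1.13 (adjusted p 0.03587). That call was lost without replicate 2 (adjusted p 0.3816) or 3 (adjusted p 0.1343), at equal totals (adjusted p 0.05451) and with no filter (adjusted p 0.08791). The rise of Ccl2 was not called without replicate 3 (adjusted p 0.1695), and the IL-4 count was 2 without it.

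Among 26 genes of the signalling machinery below the receptors, all 26 were called over the LPS course (87.6% of all genes), 14 upwards and 12 downwards, with a median largest change of 0.46. The largest rises were those of Rgs1, an RGS protein that damps chemokine receptor signals, from 31 ± 6 to 615 ± 190 at LPS 0.5 h (4.23, adjusted p 4.528e-10), Pik3r5, a regulatory subunit of phosphoinositide 3-kinase gamma (3.66 at 1 h), and Rgs16 (3.04 at 2 h). The largest falls were those of Arrb1, an arrestin, from 713 ± 45.8 to 13 ± 2.65 at LPS 4 h (−5.69, adjusted p 9.921e-13), and of the RGS genes Rgs18 (−4.10 at 1 h) and Rgs2 (−3.91 at 2 h). Members of the RGS group therefore went both ways, though Rgs16, with an untreated mean of 0.67, passed the filter only through stimulated libraries. Its rise is given as a value and not as support. Over the IL-4 course 15 of 26 were called (40.3% of all genes), 1 upwards and 14 downwards, with a median of −0.46. Gnb1, a G protein beta subunit, rose by 0.60 at 1 h, while Grk5, a receptor kinase, fell by 1.70 at 2 h and Arrb1 fell by 1.34 at 1 h. At IL-4 0.5 h Pik3cg rose by 0.76 (adjusted p 0.0001205) before it fell by 1.12 at 4 h, and Rgs1 was higher by 1.70 (adjusted p 0.01873), although it was not called over the course (F test adjusted p 0.05023). The Rgs1 call at 0.5 h was lost without replicate 2 (adjusted p 0.2688) or 3 (adjusted p 0.151) and with no filter (adjusted p 0.07218). Rgs18 fell by 1.46 at 4 h, a call lost without replicate 2 (adjusted p 0.2548) or 3 (adjusted p 0.1658). The IL-4 count was 7 without replicate 2 and 7 without replicate 3.

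The genes whose 9 group means were most like those of each receptor were sought among 6742 or 6743 protein-coding genes with a mean of at least 50 in some group and a range of at least 1 on the log2 scale. Pearson's r is given as a description, and the groups share the untreated libraries' scaling and culture. For Ccrl2 they were Birc3, Sod2 and Ccl9 (r 0.99 each), for Ccr3 Plaur, Iqgap1 and E2f3 (0.98 each), and for Ccr7 Eif4g2, Saa3 and Marco (0.99 each). For Cxcr4 they were Cd28, Srpk2 and Gdpd5 (0.99 each), for Ccr2 Csgalnact2 (0.97), Ugt1a7c and Ugt1a9 (0.93 each), and for Ccr1 Numb (0.96), Slc11a1 and Tlr13 (0.95 each). Ugt1a7c and Ugt1a9 have overlapping gene models and nearly equal values, so they are not separate likenesses. Among these candidates, which left out genes overlapping the receptor and non-coding genes such as Gm33858, Cx3cr1 had no close match. Its first was Stk17b at 0.85. Among the 7 receptors the closest pair was Ccr1 and Cx3cr1 at 0.85, and Ccr7 and Cxcr4 ran most against each other at −0.94.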

How the data were processed

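Chromatin-associated RNA was sequenced in 27 samples. Per the study's methods and the submitters' processing notes, single-end reads were aligned to mm10 with TopHat2 2.1.1, multi-mapping and blacklisted reads were removed (bedtools 2.29.2) and reads were counted per gene over GRCm38.p6. The authors then scaled the counts on invariant genes, and the deposited values are whole numbers that no longer count reads, taken here as a score. Strand use, the counting of introns and the depth of each library are not given in the sources used here, so precision rests on the spread between replicates.

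The fits used limma 3.58.1 (R 4.3.3) on log2(value + 1) (mean-variance trend, Benjamini-Hochberg over 13901 genes with at least 10 in at least 3 samples, threshold 0.05). This scale understates the change of low genes. Each course was fitted on 15 samples with a moderated F test, contrasts against untreated and steps between neighbouring times, and LPS and IL-4 were compared in 1 fit of all 27. The script was tested on simulated data. The study's impulse model was not run.

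The members, gene lists, markers and tests were chosen with earlier results of these data known, and the promoter motifs after the sequences had been read, with the NF-κB form widened to take in the Ccr3 match. Named genes were the 7 receptors and, per list, stimulus and direction, up to 3 called genes with the largest change and no overlap with untreated. Genes within 50 kb of a receptor were examined as possible sharers of reads. Alternatives were another filter, pseudocount and scaling, a replicate block, leaving out each replicate, and averaging replicates 2 and 3. Trac was not found in the table. Some genes of the lists are not reported here.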

Additional observations from a re-analysis of the deposited data

Results flagged for a closer look

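For 3 receptor genes the difference between LPS and IL-4 itself differed between 0.5 and 4 h, by a limma test of the interaction in the fit of all 27 samples. For Cxcr4 the LPS minus IL-4 difference at 4 h minus that at 0.5 h was −4.92 on the log2 scale (SE 0.54, adjusted p 5.106e-08). For Ccr7 it was 3.47 (SE 0.66, adjusted p 9.77e-05), on the log2(value + 1) scale with IL-4 at 0 throughout. For Ccr3 it was −2.79 (SE 0.87, adjusted p 0.009218). Ccr7 and Ccr3 entered the test only through their LPS libraries, so their values are a description and not support. The Cxcr4 difference was called under every alternative in which the gene was tested. Of all tested genes 53.6% were called in this test. For Ccr1, Ccr2, Ccrl2 and Cx3cr1 it gave 0.24, −0.21, −0.06 and −0.04, none of them called. Groups of 3 were not examined for outlying samples.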

How the results depend on the processing

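Counts of called receptor genes out of 7 depended most on the filter and on replicates 2 and 3. Requiring a mean of 50 left only Ccrl2 and Cx3cr1 to test, so the count was 2 for the LPS course, LPS 2 h, LPS 4 h and the direct comparison at 1 h, 1 for the IL-4 course, LPS 0.5 and 1 h, every IL-4 time, the LPS steps to 1 and 2 h, the IL-4 step to 1 h and the direct comparison at 0.5, 2 and 4 h, and 0 for the LPS step to 4 h. With no filter it was 1 at IL-4 0.5 h and 0 for the LPS step to 4 h. At LPS 0.5 h it was 4 with a pseudocount of 8 and 4 at equal totals, and for the IL-4 step to 1 h it was 1 with median-of-ratios rescaling. With replicates 2 and 3 averaged it was 2 for the IL-4 course, 1 at IL-4 0.5 h, 1 at 1 h, 2 at 4 h and 0 for the LPS step to 4 h. Leaving out 1 replicate gave 1 to 4 for the IL-4 course, 3 to 6 at LPS 1 h, 1 to 3 at IL-4 0.5 h, 1 to 3 at 1 h, 2 to 4 at 4 h, 2 to 4, 2 to 6 and 0 to 2 for the LPS steps, 0 to 2, 0 to 1 and 0 to 1 for the IL-4 steps, and 3 to 5 for the direct comparison at 4 h. Beyond the gene count of the stricter filter, the cause of these changes was not tested.

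With a replicate block the IL-4 steps gave 2, 1 and 1 in place of 0, and no other count of receptor genes moved by over 1.5 times. The block also called the Cx3cr1 falls at LPS 0.5 h (−1.78, adjusted p 0.001248) and 1 h (−1.24, adjusted p 0.01302), that of Ccr2 at IL-4 0.5 h (−0.72, adjusted p 0.03642) and the LPS minus IL-4 difference of Ccr2 at 2 h (−0.97, adjusted p 0.008272). The sources used here tie same-numbered samples by nothing beyond the number. Yet their deviations from their group means correlated by over 0.1 in 106 of 108 pairs, from 0.09 to 0.71. For replicate 1 the correlations were 0.35 to 0.71. The main fits took no account of this. Over all genes the IL-4 course count of 5606 was 7409 with the block, 2234 without replicate 2 and 2169 without replicate 3. Without depth, a receptor gene at a few normalised read counts cannot be placed above or below the counting floor.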
